A study of Mus musculus with 16 samples.

Results

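ESAM-low conventional dendritic cells of type 2 (cDC2), labelled Esamlo, were compared between Etv6-deficient (CKO) and WT mouse spleen across the expressed autosomal genes. These were the 13317 autosomal genes that passed a filter on low counts, out of 24116 genes in the deposited table, and 4 of its 16 libraries: WT replicates 1 and 2 and CKO replicates 1 and 2. Of these genes, 11333 reached 1 CPM (a count scaled to a common library size) in at least 2 of the 4 libraries. The table also holds WT and CKO pairs of ESAM-high cDC2 (Esamhi), of the Dec205 subset and of plasmacytoid dendritic cells (pDC), which are used below only to place the Esamlo values. Both genotypes share the tissue, the sorting by subset and the library method, SMART-seq v4 cDNA amplified by PCR without molecular identifiers. The labels give the genotypes as WT and CKO and no more: the strain, the age and sex of the mice, the Cre driver and the deleted exons are not stated. Nothing in them ties the 2 libraries of a group to different mice or cultures; the p-values therefore rest on library-to-library spread alone, part of which may be technical.

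Etv6 (also called TEL) is a transcription factor of the ETS family, known mainly as a repressor, that binds DNA through the ETS domain at sites built around the letters GGAA. It is needed for blood formation in the adult bone marrow and is a frequent partner in leukaemia translocations. Splenic cDC2 present antigen on MHC class II to CD4 T cells. They are divided by the adhesion molecule ESAM: the ESAM-high cells depend on Notch2 signalling, and the ESAM-low cells carry genes shared with monocytes, such as Lyz2, Csf1r and Ccr2.

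The 4 Esamlo libraries held 14982885 to 20709265 counts and detected 13571 to 15252 genes. Xist, the RNA of the inactive X chromosome, was at 0 to 0.852 CPM in WT and 296 to 303 CPM in CKO, whereas the Y-linked Ddx3y was at 161 to 222 CPM in WT and 0.0565 to 0.191 CPM in CKO, so sex and genotype cannot be told apart in any comparison below. Etv6 itself, on chromosome 6 from 134035700 to 134270158 (GRCm38), was at 426 and 512 CPM in WT and 370 and 362 CPM in CKO. Its log2 fold change of -0.36 (SE 0.104, edgeR quasi-likelihood adjusted p = 0.255) did not pass the test, and the counts of a whole gene do not show which exons the transcripts held.

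Lyz2, Csf1r and Esam separated Esamlo from Esamhi in both genotypes, whereas Sirpa was high in both subsets. Lyz2, which encodes a lysozyme made by myeloid cells, was at 3268 and 2512 CPM in WT and 2574 and 3146 CPM in CKO, beside 286 and 263 CPM in the Esamhi WT libraries. Csf1r, the receptor for macrophage colony-stimulating factor, was at 815 and 804 CPM in WT and 730 and 743 CPM in CKO, beside 271 and 258 CPM in Esamhi WT. Sirpa, an inhibitory receptor of all cDC2, was at 1266 to 1339 CPM in the 4 libraries, while Esam was at 7.99 to 13.7 CPM in them and at 144 and 151 CPM in Esamhi WT. In the Esamhi CKO libraries Lyz2 was at 765 and 705 CPM and Csf1r at 397 and 366 CPM, so these gaps were narrower in CKO. Ccr2, Cx3cr1, Cd36 and Clec12a were also higher in Esamlo than in Esamhi in both genotypes. Csf3r did not separate the subsets in CKO, at 63.2 and 63 CPM in Esamlo and 63.5 and 69.1 CPM in Esamhi. None of Lyz2, Csf1r and Sirpa differed between genotypes in Esamlo at an adjusted p under 0.05.

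Some other cell types had marker sums that differed between the genotypes. The summed level of 15 B cell markers was 489 and 663.3 CPM in the WT libraries and 1593 and 708 CPM in CKO, with CKO replicate 1 far above the rest. In this list 0 of 15 genes passed the test, the median log2 fold change was 1.00, and 14 genes lay above 0. In bulk samples, a changed number of cells of a type and a changed amount of RNA per cell cannot be told apart. The sums for 7 plasma cell markers were 87.33 and 106.7 CPM in WT and 151.8 and 121.8 CPM in CKO, and those for 11 neutrophil markers 81.93 and 85.5 CPM and 127.5 and 125.1 CPM. The sums for T cell, red pulp macrophage, pDC, and erythroid and platelet markers overlapped between the genotypes. Monocyte markers summed to 4648 and 4475 CPM in WT and 4976 and 5130 CPM in CKO, cDC1 identity genes to 2588 and 2509 CPM and to 2855 and 3200 CPM, and NK cell markers to 241.8 and 235.5 CPM and to 200 and 232.3 CPM. The median log2 fold changes of these lists were 0.04, -0.15 and -0.02. Of their tested autosomal genes, 7 of 14, 11 of 23 and 5 of 10 lay above 0. Plac8, which was called higher, is in the monocyte list. Of the genes that define other cells, Klk1 of the pDC list was at 0 in all 4 libraries, and Ly6g, Klra8 and Pf4 were among those that did not pass the filter. The part of any of these cells in the results was not tested.

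Few genes were called in ESAM-low cells, and most of these were higher in CKO. A gene was called at an edgeR quasi-likelihood adjusted p under 0.05, with the spread shared over all 16 libraries. Of the 13317 genes, 59 were higher in CKO (0.443%) and 9 were lower (0.0676%), 68 in all (0.511%). At an unadjusted p under 0.05 there were 1044 genes (7.84%), and in 5869 genes (44.1%) both CKO libraries lay beyond both WT libraries. Over all tested genes the median log2 fold change was 0.01, with 6822 genes above 0 and 6365 below. The gene lists used here were drawn up with earlier results of these data known, so their counts and medians are descriptions and not tests. Counts of called list members below are to be set beside the shares of all tested genes given here. Some of the largest changes were in genes nearly silent in WT: Cdh1 and Col17a1 each rose more than 100-fold, whereas no called fall of a gene above 10 CPM in WT exceeded 2.21-fold.

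**Figure D1:**
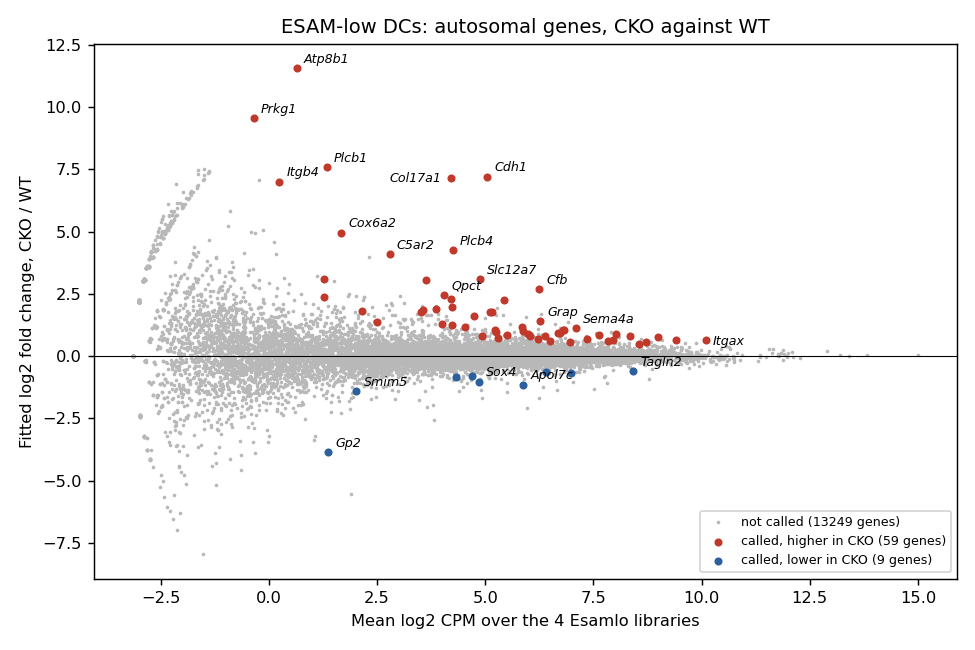
Fitted log2 fold change of CKO over WT against the mean log2 CPM of the 4 Esamlo libraries, 1 point per autosomal gene. Red points are the 59 genes called higher, blue points the 9 called lower and grey points the genes not called; fitted changes of genes with no count in one genotype, such as Atp8b1 and Prkg1, depend on the prior count and are no measure of size.

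The sequences before the start sites of 4 called genes are shown here because ETS factors bind the core GGAA, and these genes include large rises and the largest called fall. RefSeq windows of 250 bases before a start (GRCm38.p6) existed for 50 of the 68 called genes and for 20 of the 27 genes with the largest rises and falls by the rule given in the methods; Cdh1 is without an entry. Each sequence is printed 5′ to 3′ on the gene's strand, without bases that an annotated GENCODE exon covers, and capitals mark GGAA or its reverse complement TTCC.
Col17a1, chr19:47692095-47692292, minus strand: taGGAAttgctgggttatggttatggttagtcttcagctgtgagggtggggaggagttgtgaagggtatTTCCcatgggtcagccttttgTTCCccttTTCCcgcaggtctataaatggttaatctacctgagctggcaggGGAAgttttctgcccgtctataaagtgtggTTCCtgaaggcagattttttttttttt
Plcb4, second start, chr2:135764588-135764837, plus strand: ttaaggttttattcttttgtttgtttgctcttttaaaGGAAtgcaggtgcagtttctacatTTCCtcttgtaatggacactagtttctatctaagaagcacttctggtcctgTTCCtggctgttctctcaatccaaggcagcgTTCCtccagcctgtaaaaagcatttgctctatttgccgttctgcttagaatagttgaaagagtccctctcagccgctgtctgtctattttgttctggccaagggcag
Slc12a7, chr13:73763410-73763659, plus strand: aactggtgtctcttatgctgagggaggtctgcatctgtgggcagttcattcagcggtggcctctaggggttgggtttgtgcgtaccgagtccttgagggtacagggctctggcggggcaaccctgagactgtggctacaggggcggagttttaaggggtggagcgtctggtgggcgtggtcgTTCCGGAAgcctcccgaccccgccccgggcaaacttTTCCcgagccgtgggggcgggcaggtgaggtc
Gp2, chr7:119459286-119459522, minus strand: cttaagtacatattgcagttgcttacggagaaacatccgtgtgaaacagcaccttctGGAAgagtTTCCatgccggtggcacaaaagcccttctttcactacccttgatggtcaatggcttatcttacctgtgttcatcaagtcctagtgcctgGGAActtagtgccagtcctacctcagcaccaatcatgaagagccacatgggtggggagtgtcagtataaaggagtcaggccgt

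Counting both strands, the core occurred 6 times before Col17a1 and 4 times before the second start of Plcb4. It occurred 3 times before the start of Slc12a7 used here and 3 times before Gp2. Slc12a7 held it as the palindrome TTCCGGAA, which reads CCGGAA on either strand. The printed Slc12a7 window lies inside the gene model, which spans 73733052 to 73816754, and so precedes an internal start. Another window of Slc12a7 is not printed. The printed window of Plcb4 also lies inside its gene model, which spans 135658603 to 136014602, and precedes an internal start. The other Plcb4 window begins in an annotated exon and is not printed. These letters are common: GGAA was present in 93.1% of the 13285 windows of tested autosomal genes and in 93.3% of the 60 windows of genes that rose. The longer CCGGAA was in 20.9% of tested windows and in 12 of the 60 windows of risen genes, CCGGAAGT in 5.66% and 3.33%, and GAGGAAGT, the form preferred by PU.1-type factors, in 2.71% and 1.67%. Every CCGGAAGT also holds CCGGAA and GGAA, and every GAGGAAGT holds GGAA. The 7 windows of 6 genes that fell held GGAA in 71.4% and none of the longer forms. The shares in windows of risen genes were near or below those of all tested genes. A match of letters is a description and not a bound site.

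Cdh1, Col17a1 and Itgb4, adhesion genes known from epithelia, were among the genes that rose. Cdh1 (chromosome 8, 106603350 to 106670247) encodes E-cadherin, which joins neighbouring epithelial cells and also ties Langerhans cells to keratinocytes. Its level was 2.61 and 2.72 CPM in the WT libraries and 461 and 324 CPM in the CKO libraries. The CKO libraries were thus far above both WT libraries, with a log2 fold change of 7.20 (SE 0.416, 147-fold, edgeR adjusted p = 3.36e-06). Col17a1 (chromosome 19, 47646341 to 47692042) encodes the transmembrane collagen of hemidesmosomes, the junctions that anchor epithelia to the basement membrane. It was at 2.44 and 0.73 CPM in WT and 230 and 234 CPM in CKO, a log2 fold change of 7.14 (SE 0.438, 141-fold, adjusted p = 4.26e-06). Itgb4 encodes the integrin chain beta 4, which sits beside this collagen in hemidesmosomes. It had 2 counts over the 2 WT libraries and was at 9.18 and 8.02 CPM in CKO, a ratio of 141 with a 95% counting interval of 38.8 to 1171 (adjusted p = 0.0421). Cdh1 and Col17a1 kept their call when any 1 of the 4 libraries was left out. Itgb4 lost it without any 1 of them, with adjusted p of 0.167 and 0.36 without WT replicates 1 and 2 and of 0.208 and 0.123 without CKO replicates 1 and 2.

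Few partners of these proteins were called. Of 9 tested genes of the hemidesmosome and basement membrane list, Col17a1 and Itgb4 were higher, none was lower and the median log2 fold change was 0.23. The shares called among all tested genes were 0.443% higher and 0.0676% lower. Plec, the plakin that links hemidesmosomes to keratin filaments, was at 38.6 and 29.7 CPM in WT and 40.4 and 42.7 CPM in CKO, and Dst, a related plakin, at 16.3 and 32.2 CPM and at 15.2 and 17.2 CPM. Of 17 cadherin and catenin genes, Cdh1 was called and the median was -0.01. Ctnnd2, delta catenin 2, was at 60 and 64.9 CPM in WT and 88.1 and 88.7 CPM in CKO (adjusted p = 0.722), and Ctnna1, alpha catenin, at 156 and 149 CPM and at 130 CPM in each CKO library (0.838). The integrin list does not hold Itgb4. Of its 18 tested genes, Itgad and Itgax were higher and the median was 0.11. Itgal, the chain of LFA-1, was at 153 and 144 CPM in WT and 193 and 189 CPM in CKO without passing the test (adjusted p = 0.383).

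Plcb4 and Plcb1, phospholipase C enzymes of the beta class, rose. Such enzymes are switched on by Gq-coupled receptors and cleave a membrane phosphoinositide to release calcium and activate protein kinase C. Plcb4 (chromosome 2, 135658603 to 136014602) was at 4.09 and 4.51 CPM in WT and 84.1 and 78.8 CPM in CKO, a log2 fold change of 4.24 (SE 0.182, 18.9-fold, adjusted p = 1.6e-07). It had the smallest adjusted p of all tested genes. Plcb1, which lies 183 kb away on the same chromosome, was at 0.284 and 0 CPM in WT and 26.9 and 33.3 CPM in CKO (adjusted p = 0.00156). Prkg1, a cGMP-dependent protein kinase, had no count in either WT library and was at 5.74 and 4.91 CPM in CKO, at least 58.4-fold higher when WT is set to a group floor of 3 counts (adjusted p = 0.0331). Rgs18, a regulator that shortens signalling by G proteins, fell from 105 and 107 CPM to 65.8 and 69.6 CPM (1.56-fold, adjusted p = 0.00441). The list of phospholipase C and Gq genes had 25 members tested, of which these 3 were higher and 1 was lower, with a median of 0.19. For all tested genes the shares were 0.443% and 0.0676%. Plcb3 was at 14.4 and 16.6 CPM in WT and 22.9 and 20.9 CPM in CKO and Plcl2 at 83.4 and 90 CPM and at 128 and 113 CPM, neither past the test. Plcb4 and Plcb1 kept their call with any 1 library left out. Prkg1 lost it each time (adjusted p 0.115 to 0.219), and Rgs18 lost it without WT replicate 2 (0.0557) or CKO replicate 1 (0.083).

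Further signalling genes that rose act near the membrane. Grap, a Grb2-related adaptor that couples receptors to Ras, was at 45.6 and 48.9 CPM in WT and 131 and 118 CPM in CKO, a 2.64-fold rise with little spread (SE 0.101 on the log2 scale, adjusted p = 1.37e-05). Inpp4b, a phosphatase that removes a phosphate from phosphoinositides, went from 20.1 and 17.9 CPM to 66.6 and 64.9 CPM (3.45-fold, adjusted p = 0.00279). Neither gene had overlapping groups. Grap kept its call in each fit with a library left out, and Inpp4b lost it without WT replicate 2 (adjusted p = 0.064).

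Transport across membranes was represented by Slc12a7 and Atp8b1. Slc12a7 encodes KCC4, a cotransporter that moves potassium and chloride out of cells. It was at 8.81 and 11.3 CPM in WT and 91.7 and 79.5 CPM in CKO (8.53-fold, SE 0.339 on the log2 scale, adjusted p = 0.000705). Of 12 tested SLC12 cotransporters and their kinases, Slc12a7 was the 1 gene called, and the median was 0.36. The share called higher among all tested genes was 0.443%. Slc12a2, the sodium-potassium-chloride cotransporter NKCC1 that moves the same ions inward, was at 82.7 and 106 CPM in WT and 210 CPM in each CKO library, with an adjusted p of 0.0603. Atp8b1, a flippase of membrane phospholipids, had no count in either WT library and was at 23.2 and 19.4 CPM in CKO, at least 234-fold higher when WT is set to a group floor of 3 counts (adjusted p = 0.00187). Slc12a7 and Atp8b1 kept their call with any 1 library left out.

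**Figure D2:**
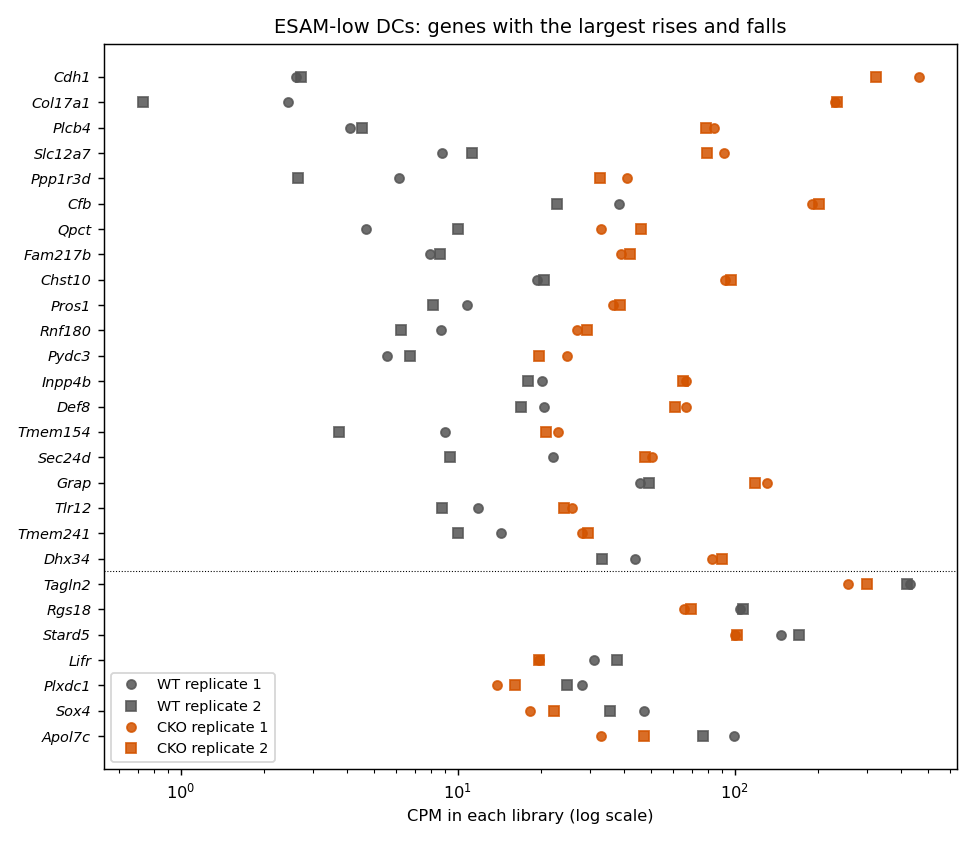
CPM in each Esamlo library, on a log axis, for the 20 largest called rises (above the dotted line) and 7 called falls among genes whose mean log2 CPM was 3 or more; grey symbols are WT, orange symbols CKO, circles replicate 1 and squares replicate 2. WT and CKO do not overlap in any of these genes, which the rule for naming them required.

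Complement genes were among those that rose. Cfb, factor B of the alternative pathway, was at 38.1 and 22.9 CPM in WT and 190 and 201 CPM in CKO (6.4-fold, adjusted p = 0.0447). C5ar2, a receptor for the fragment C5a that does not couple to G proteins, was at 1.99 and 1.26 CPM in WT and 28.1 and 28.2 CPM in CKO (17.1-fold, adjusted p = 0.00202). Itgax, the CD11c chain of complement receptor 4 and the gene most used to define dendritic cells, was at 879 and 869 CPM in WT and 1418 and 1329 CPM in CKO (1.57-fold, adjusted p = 0.0447). Of the 18 tested complement genes these 3 were higher and none was lower, with a median of 0.50. Among all tested genes 0.443% were called higher and 0.0676% lower. Among members not called, C5ar1, the signalling receptor for C5a, was at 5.8 and 11.4 CPM in WT and 21.6 and 34.1 CPM in CKO (adjusted p = 0.621), and Itgam, the CD11b chain, at 234 and 268 CPM and at 438 and 383 CPM (adjusted p = 0.459). Groups did not overlap for either gene, which held for 44.1% of all tested genes. C5ar2 kept its call with any 1 library left out. Cfb lost it each time (adjusted p 0.167 without WT replicate 1, 0.47 without WT replicate 2, 0.296 and 0.23 without CKO replicates 1 and 2), and it was not called by DESeq2 (0.451). Itgax also lost it each time (adjusted p 0.159 to 0.395).

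Itgax stands in a run of leukocyte integrin genes on chromosome 7. Itgad, the CD11d chain, rose from 60.8 and 96.5 CPM to 171 and 156 CPM (2.08-fold, adjusted p = 0.041). Cox6a2, a muscle-type subunit of cytochrome oxidase that is also known as a pDC gene, was at 0.398 and 0.664 CPM in WT and 20.2 and 12.5 CPM in CKO (31-fold, adjusted p = 0.000919). Of the 11 tested genes of the list around Itgax, these 3 were higher and 10 lay above 0, with a median of 0.65. Of all 13317 tested genes 0.443% were called higher, and 6822 lay above 0. The gene models of Cox6a2 and Itgad overlap, and how reads in the overlap were counted is not known here. Cox6a2 kept its call with any 1 library left out, and Itgad lost it without WT replicate 1 (adjusted p = 0.221), CKO replicate 1 (0.325) or CKO replicate 2 (0.129). Of 12 tested genes in the list around Etv6 on chromosome 6, none was called and the median was -0.05; Ybx3, a cold shock domain protein, was at 136 and 133 CPM in WT and 88.9 and 106 CPM in CKO (adjusted p = 0.115).

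Several enzymes that modify lipids, peptides and sugars rose. Qpct, the glutaminyl cyclase that closes the N-terminus of peptides including some chemokines, was at 4.66 and 10 CPM in WT and 33 and 46.1 CPM in CKO (5.42-fold, adjusted p = 0.0043). Chst10, a sulfotransferase that completes the HNK-1 sugar epitope, went from 19.3 and 20.5 CPM to 92.1 and 97.4 CPM (4.76-fold, adjusted p = 0.0147). Aoah, which removes fatty acids from bacterial lipopolysaccharide, was at 0.398 and 1.26 CPM in WT and 5.59 and 8.36 CPM in CKO (8.57-fold, adjusted p = 0.0234). Stard5, a lipid-binding protein, fell from 147 and 171 CPM to 100 and 102 CPM (1.58-fold, adjusted p = 0.0158). In the list of such enzymes 3 of 17 tested genes were higher and 1 lower, with a median of 0.51. Over all tested genes 0.443% were called higher and 0.0676% lower, with a median of 0.01. The list was written with earlier results of these data known, so its counts are no test of a theme. Dpp4, a peptidase also known as CD26, was at 509 and 516 CPM in WT and 577 and 583 CPM in CKO without passing the test (adjusted p = 0.727). Qpct kept its call with any 1 library left out. Chst10 and Aoah lost it each time, with adjusted p of 0.0875 to 0.174 and of 0.0642 to 0.207, and Stard5 lost it without WT replicate 2 (0.218), CKO replicate 1 (0.214) or CKO replicate 2 (0.116).

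Ppp1r3d, a subunit that directs protein phosphatase 1 to glycogen, was at 6.14 and 2.66 CPM in WT and 40.7 and 32.8 CPM in CKO (8.28-fold, adjusted p = 0.0104). Its neighbour Fam217b was at 7.95 and 8.63 CPM in WT and 38.9 and 41.8 CPM in CKO (4.87-fold, adjusted p = 0.000395). The 2 genes start 70 bases apart on opposite strands of chromosome 2 in RefSeq and their gene models overlap; whether reads in the overlap were counted for both was not tested. Of 13 tested genes for glycogen and phosphatase 1 subunits, Ppp1r3d was the 1 called, with a median of 0.13. Ppp1r3b, its relative in liver, was at 5.8 and 8.7 CPM in WT and 28.7 and 29.5 CPM in CKO, with no overlap between the groups and an adjusted p of 0.684. Such a lack of overlap held for 44.1% of all tested genes. Fam217b kept its call with any 1 library left out, and Ppp1r3d lost it without WT replicate 2 (adjusted p = 0.158) or CKO replicate 1 (0.083).

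Genes of the interferon pathway rose in part. Irf1, a transcription factor induced by interferon gamma, was at 257 and 239 CPM in WT and 439 and 419 CPM in CKO (1.73-fold, adjusted p = 0.0006). Ifi47, an interferon-induced GTPase, was at 78.8 and 76.6 CPM in WT and 158 and 135 CPM in CKO (1.89-fold, adjusted p = 0.0111). Of 35 tested genes of the type I interferon response, 2 were higher, Ifi47 among them, and none was lower. The median was 0.14 and 25 genes lay above 0. Among all tested genes 0.443% were called higher. Oas2, an antiviral enzyme, was at 19.9 and 19.4 CPM in WT and 73.9 and 74.5 CPM in CKO with an adjusted p of 0.0998, and Oas3 at 22.8 and 17.2 CPM and at 38.1 and 35.5 CPM. Irf1 kept its call with any 1 library left out. Ifi47 lost it without WT replicate 1 (adjusted p = 0.0832), WT replicate 2 (0.148) or CKO replicate 1 (0.149).

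The GTPases of the IRG and GBP families, which attack vacuoles of intracellular microbes, had 1 of 16 tested genes called (Ifi47), a median of 0.52 and 15 genes above 0. Both CKO libraries lay above both WT libraries in 13 of the 16; over all tested genes this held for 23.2%. Tgtp1 was at 84.8 and 77.5 CPM in WT and 137 and 113 CPM in CKO (adjusted p = 0.222), Gbp4 at 63.1 and 63.7 CPM and at 88.8 and 83.8 CPM (0.305), and Iigp1 at 6.88 and 7.5 CPM and at 29.5 and 15.1 CPM (0.122). In the list of MHC class I presentation no gene of 23 was called, the median was 0.14, and in 14 genes both CKO libraries lay above both WT libraries. Tap1, a subunit of the peptide transporter, was at 377 and 376 CPM in WT and 553 and 492 CPM in CKO (adjusted p = 0.0728), and H2-Q7 at 398 and 407 CPM and at 551 and 506 CPM (0.052). In the list of MHC class II presentation no gene of 17 was called and the median was 0.05. H2-DMb2, a peptide exchange factor, was at 637 and 604 CPM in WT and 688 and 715 CPM in CKO (adjusted p = 0.499). The H2 genes resemble each other closely, and how reads shared between them were counted is not given in the sources used here.

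Receptors and surface proteins gave single calls in several lists. Csf2rb2, the beta chain of the mouse IL-3 receptor, was at 142 and 151 CPM in WT and 261 and 271 CPM in CKO (1.82-fold, adjusted p = 0.0006), and Lifr, the receptor for leukaemia inhibitory factor, fell from 31.1 and 37.5 CPM to 19.6 CPM in each CKO library (1.75-fold, adjusted p = 0.0486). They were the 2 called genes of 21 growth factor and cytokine receptors, whose median was 0.08. Il4ra, the receptor for IL-4, was at 251 and 279 CPM in WT and 369 and 393 CPM in CKO (adjusted p = 0.141). Tlr12, a Toll-like receptor for profilin of protozoa, rose from 11.8 and 8.76 CPM to 25.8 and 24.2 CPM (2.42-fold, adjusted p = 0.0259) and was the 1 gene called of 19 Toll-like and NOD-like receptor genes, with a median of 0.10. Plac8, a small protein abundant in monocytes and pDC, was at 362 and 419 CPM in WT and 638 and 704 CPM in CKO (1.72-fold, adjusted p = 0.0127), the 1 called gene of 15 in the list of Ms4a, Ly6 and Plac8 genes (median 0.06). Csf2rb2 shares most of its sequence with Csf2rb, so its reads may not all be its own. It kept its call with any 1 library left out, while Lifr and Tlr12 lost it each time (adjusted p 0.0726 to 0.413 and 0.0727 to 0.342) and Plac8 lost it without WT replicate 1 (0.144), WT replicate 2 (0.0557) or CKO replicate 2 (0.107).

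Among 30 transcription factors of dendritic cells, Sox4 was called and the median log2 fold change was 0.00. Sox4, an HMG box factor of progenitor cells, fell from 47.1 and 35.5 CPM to 18.2 and 22.2 CPM (2.05-fold, adjusted p = 0.0435), a call lost without any 1 library (adjusted p 0.0719 to 0.563). Irf8, required for cDC1, was at 331 and 287 CPM in WT and 447 and 410 CPM in CKO with an adjusted p of 0.0651. Id2, an inhibitor of E proteins, was at 377 and 494 CPM in WT and 594 and 766 CPM in CKO (adjusted p = 0.224), and Runx2 at 50 and 42.3 CPM and at 68.7 and 81.4 CPM (0.288). None of 16 autosomal ETS family genes was called, and their median was 0.01. Etv3, a repressor related to Etv6, was at 439 and 423 CPM in WT and 569 and 568 CPM in CKO (adjusted p = 0.236), and Ets2 at 82.1 and 80.3 CPM and at 46.1 and 53.1 CPM (0.563).

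The other genes of the 20 largest rises with a mean log2 CPM of 3 or more have varied roles. Pros1, the anticoagulant protein S that also activates the receptors of the TAM family, was at 10.9 and 8.17 CPM in WT and 36.4 and 38.6 CPM in CKO (3.94-fold, adjusted p = 0.00943). Rnf180, a membrane-bound ubiquitin ligase, rose 3.75-fold, Pydc3, a pyrin domain protein of the interferon-inducible cluster, 3.62-fold, Def8 3.42-fold, Tmem154 3.42-fold and Sec24d, a coat protein of vesicles that leave the endoplasmic reticulum, 3.09-fold. Tmem241 rose 2.37-fold and Dhx34, a helicase of nonsense-mediated decay, 2.25-fold. Pydc3 has near-identical neighbours, and its reads may be shared with them. With 1 library left out, Pros1, Rnf180, Pydc3 and Tmem241 lost their call each time (adjusted p up to 0.165, 0.23, 0.369 and 0.439, the highest without WT replicate 2 except for Pydc3 without CKO replicate 1). Def8 lost it without WT replicate 2 (0.101) or CKO replicate 1 (0.0542), and Tmem154, Sec24d and Dhx34 without WT replicate 2, CKO replicate 1 or CKO replicate 2 (up to 0.18, 0.16 and 0.215).

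The remaining called rises were smaller or at low levels. Sema4a, a semaphorin that stimulates T cells, was at 110 and 75.7 CPM in WT and 207 and 199 CPM in CKO (2.19-fold). Low genes included Tmem163, a zinc transporter (5.13-fold), Pmepa1, an inhibitor of TGF-beta signalling (3.56-fold), and Phgdh, the first enzyme of serine synthesis (2.57-fold). Clec2i, a ligand of NK cell receptors, rose 2.25-fold, Slco3a1 2.08-fold, Scimp, an adaptor of antigen-presenting cells, 2.05-fold, Map4k2 2-fold, Nek6 1.95-fold and Gatm, an enzyme of creatine synthesis, 1.93-fold. Mxd1, a partner of Max that opposes Myc, rose 1.84-fold, Lgals8, galectin 8, 1.84-fold, Procr, the endothelial protein C receptor, 1.78-fold, and Ceacam1, Mfsd10 and Pla2g16 1.77-fold each. Rises of 1.65-fold or less were those of Sept1 (1.65-fold), Rnaset2b (1.62-fold), Hpse, heparanase (1.6-fold), Ehd1 (1.56-fold), Evl (1.53-fold), Sipa1 (1.51-fold), Tuba4a (1.48-fold), Icam1, the ligand of LFA-1 (1.47-fold), and Nabp1 (1.41-fold). Sema4a, Clec2i, Scimp and Nek6 kept their call with any 1 library left out. Lost each time were those of Slco3a1, Lgals8, Procr, Ceacam1, Hpse, Ehd1, Evl, Sipa1, Tuba4a, Icam1 and Nabp1 (highest adjusted p from 0.164 for Tuba4a to 0.333 for Procr). The others lost it without 1 to 3 of the libraries: Gatm without WT replicate 2 (0.0557), Pmepa1 without either WT library (up to 0.0726), Tmem163, Pla2g16 and Sept1 without either WT library or CKO replicate 1 (up to 0.36, 0.0722 and 0.32), Map4k2 and Rnaset2b without either WT library or CKO replicate 2 (up to 0.0981 and 0.189), Phgdh without WT replicate 2 or either CKO library (up to 0.132), and Mxd1 and Mfsd10 without WT replicate 1 or either CKO library (up to 0.134 and 0.102).

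The 9 called falls were small except for Gp2. Gp2, a membrane glycoprotein that binds bacterial fimbriae on M cells, was at 8.64 and 9.36 CPM in WT and 0.669 and 0.565 CPM in CKO (14.4-fold lower, adjusted p = 0.0172). Apol7c, an apolipoprotein L of dendritic cells, fell from 99.8 and 76.6 CPM to 32.8 and 47.2 CPM (2.21-fold, adjusted p = 0.0356), and Smim5, a small membrane protein, from 6.59 and 6.37 CPM to 2.73 and 2.09 CPM (2.67-fold, adjusted p = 0.00847). Plxdc1, a plexin domain protein, fell 1.77-fold and Tagln2, an actin-binding protein, from 429 and 420 CPM to 257 and 300 CPM (1.52-fold, adjusted p = 0.00604). Sox4, Lifr, Stard5 and Rgs18 make up the other four. Apol7c has close relatives beside it, so its reads may be shared. No fall kept its call in all 4 fits with a library left out: Gp2, Smim5, Apol7c and Plxdc1 lost it each time (adjusted p 0.0672 to 0.229, 0.0514 to 0.104, 0.0534 to 0.463 and 0.134 to 0.584), and Tagln2 without either WT library (0.0672 and 0.0557) or without CKO replicate 1 (0.0913). Whether the B cell RNA in CKO replicate 1 had any part in these falls was not tested.

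C-type lectins are receptors of which many bind sugars of microbes. Most of those in the list used here had lower fitted levels in CKO, although no gene of the 22 tested was called. Their median log2 fold change was -0.82, against 0.01 over all tested genes. Of the 22 genes, 16 lay below 0, and in 15 both CKO libraries were below both WT libraries, which held for 20.9% of all tested genes. Clec2i, by its name a C-type lectin but not in this list, was called higher (2.25-fold). Mgl2, which binds galactose sugars, was at 28.1 and 25.9 CPM in WT and 6.6 and 7.17 CPM in CKO (adjusted p = 0.1). Clec10a, its close relative, was at 45.9 and 49.8 CPM in WT and 18.1 and 19.3 CPM in CKO (adjusted p = 0.2). Clec4a2, an inhibitory receptor also known as DCIR1, was at 67.9 and 82.3 CPM in WT and 24.9 and 30.4 CPM in CKO (0.328). For these 3 genes the CKO libraries were below the WT libraries with no overlap. With the spread of the 4 Esamlo libraries alone, 118 genes were called, and 52 of the 68 genes called in the main fit kept their call. Mgl2 and Clec10a, which share sequence, passed in that fit (edgeR adjusted p = 0.00527 and 0.00745). Their log2 differences were -1.97 and -1.35, beside 0.02 and 0.82 in Esamhi, where no library was above 1.58 CPM for either gene, and the test of the difference between subsets did not pass for either (adjusted p of 1 in both).

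Chemokine ligands had 0 of 17 genes called and a median of -0.19, with 11 below 0. Ccl9, which attracts myeloid cells, was at 143 and 132 CPM in WT and 33.9 and 51.5 CPM in CKO (adjusted p = 0.0745). Ccl4, which attracts several kinds of leukocytes, was at 266 and 307 CPM in WT and 150 and 183 CPM in CKO (0.0662), and its neighbour Ccl3 at 142 and 171 CPM and at 90.9 and 112 CPM (0.318). All 3 had lower CKO than WT libraries. In the whole list both CKO libraries lay below both WT libraries in 7 genes and above them in 3. The shares over all tested genes were 20.9% below and 23.2% above. Of 16 chemokine receptors none was called (median -0.05): Ccr2, the monocyte chemokine receptor, was at 174 and 164 CPM in WT and 130 and 126 CPM in CKO (0.51), and Ccr6 at 23.8 and 22.8 CPM and at 48.4 and 39.8 CPM (0.649). Cxcr5, a receptor of B cells and of some dendritic cells, was at 10.5 and 13.5 CPM in WT and 34.9 and 18 CPM in CKO (0.31), with CKO replicate 1 the higher as for the B cell markers. Of 22 cytokine genes none was called (median 0.11), with Osm, oncostatin M, at 42.2 and 48.5 CPM in WT and 72.1 and 71.5 CPM in CKO (0.623).

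**Figure D3:**
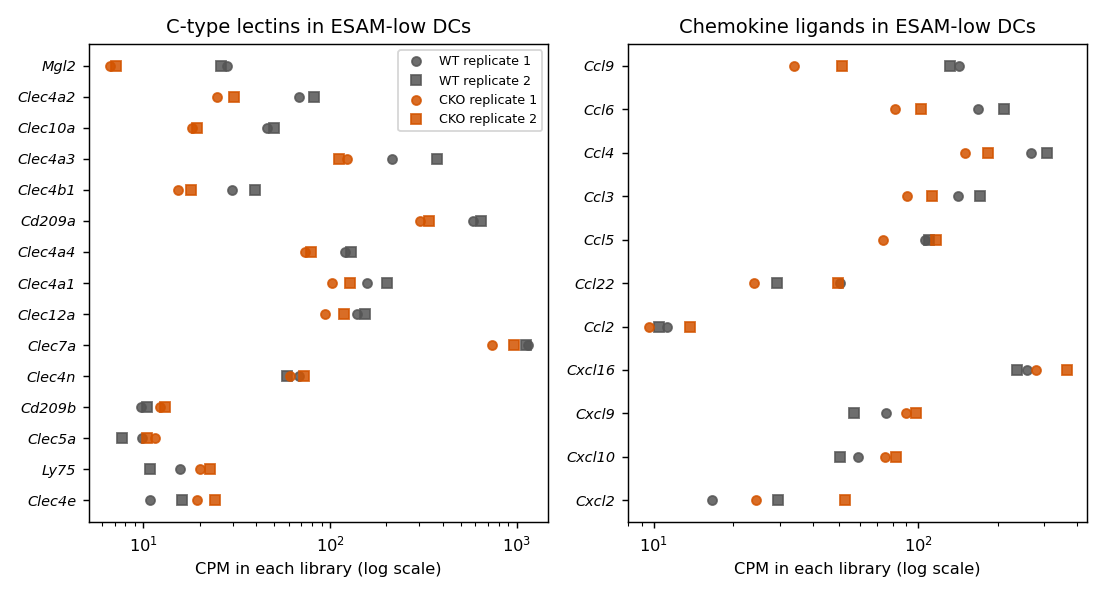
CPM in each Esamlo library, on a log axis, for C-type lectins (left) and chemokine ligands (right) whose mean log2 CPM was 3 or more; grey symbols are WT, orange symbols CKO, circles replicate 1 and squares replicate 2. Mgl2, Clec10a, Ccl9 and Ccl4 show both CKO libraries below both WT libraries, and none of the genes drawn was called.

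Lists of subset identity held few called genes. Of 22 cDC2 identity genes none was called, with a median of -0.13. Both CKO libraries were below both WT libraries in 12 of them and above in 5. Over all tested genes this held for 20.9% and 23.2%. S100a4, a calcium-binding protein, was at 433 and 377 CPM in WT and 278 and 295 CPM in CKO (adjusted p = 0.247). Of 26 genes of ESAM-low and monocyte-like cells Plac8 was called, higher, while the median was -0.11 and 19 genes lay below 0. Of 15 ESAM-high and Notch genes none was called (median 0.12): Dtx4, a Notch pathway ligase, was at 13 and 16.6 CPM in WT and 25.2 and 32.4 CPM in CKO (0.261), and Cd4, carried by many splenic cDC2, at 125 and 100 CPM and at 66.4 and 74.8 CPM (0.289). Of 23 cDC1 identity genes none was called (median -0.15), and Snx22 was at 24.9 and 23.5 CPM in WT and 39.1 and 31.8 CPM in CKO (0.0651). Of 23 pDC identity genes Cox6a2 was higher and Smim5 lower, with a median of -0.09. Monocyte markers had Plac8 as the 1 call of 14 genes (median 0.04).

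No gene was called in the remaining lists of function. Of 23 genes of maturation and costimulation the median was 0.10, and Cd274, the inhibitory ligand PD-L1, was at 327 and 322 CPM in WT and 445 and 437 CPM in CKO (adjusted p = 0.159). Medians were 0.02 for 10 Fc receptors, 0.17 for 17 apoptosis regulators, -0.05 for 19 cholesterol synthesis genes, 0.01 for 17 glycolysis genes and 0.04 for 19 lysosome and protease genes. Bcl2l11, which encodes the pro-apoptotic BIM, was at 74.7 and 79.4 CPM in WT and 111 and 97.6 CPM in CKO (0.321). All 29 oxidative phosphorylation genes and all 31 ribosomal protein genes lay below 0, with medians of -0.19 and -0.16. Of 25 cell cycle genes 23 lay below 0 (median -0.23), among them Mcm2, a helicase subunit of DNA replication, at 124 and 101 CPM in WT and 88.4 and 77.9 CPM in CKO (0.511). The 7 CDK inhibitors had a median of -0.34, and Cdkn2c was at 43.2 and 43.3 CPM in WT and 37.2 and 35.5 CPM in CKO. Of 21 heat shock and immediate early genes the median was -0.18; the chaperone Hsph1 was at 125 and 126 CPM in WT and 81.1 and 67.7 CPM in CKO (0.0983). The medians of the other marker lists were 0.93 for plasma cells, -0.30 for T cells, -0.02 for NK cells, -0.07 for red pulp macrophages, 0.77 for neutrophils and -0.13 for erythroid cells and platelets, with no gene called.

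**Figure D4:**
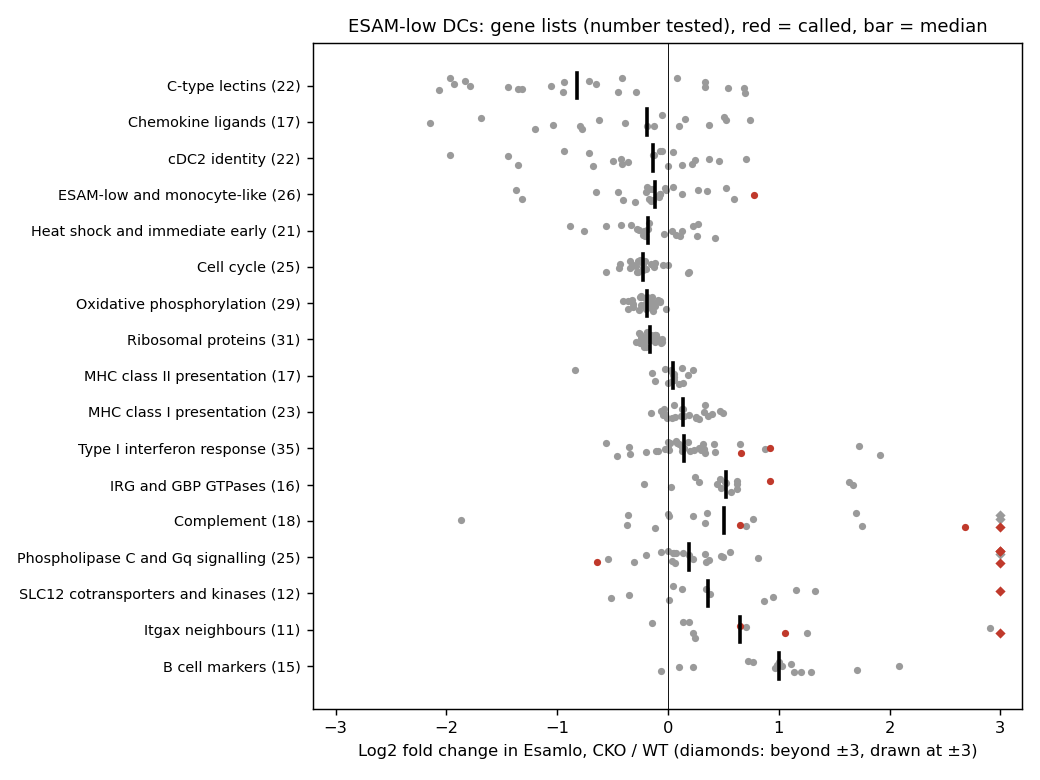
Log2 fold change of CKO over WT in Esamlo for the genes of 17 lists, 1 point per tested autosomal gene, with called genes in red and the median of each list as a black bar; values beyond 3 are drawn as diamonds at the edge. The C-type lectins have a median of -0.82 and no called gene, and the B cell markers a median of 1.00 and no called gene.

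ESAM-high cDC2, whose libraries are separate from those of Esamlo in both genotypes, changed in many of the same genes. In Esamhi 110 autosomal genes were called (0.826%), 87 higher (0.653%) and 23 lower (0.173%). Of the 68 genes called in Esamlo, 47 were also called in Esamhi in the same direction, which is 69.1% of the Esamlo calls and 42.7% of the Esamhi calls. None was called in the opposite direction, and 67 of the 68 had fitted changes of the same sign. Col17a1 was at 6.76 and 8.2 CPM in Esamhi WT and at 370 and 391 CPM in Esamhi CKO, and Plcb4 at 3.46 and 3.58 CPM and at 49.6 and 65.7 CPM. The genes thus rose in both cDC2 subsets, with log2 fold changes of 7.14 and 5.67 for Col17a1 and of 4.24 and 4.03 for Plcb4.

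The test of the difference between the subsets called no gene of the 13317 with edgeR (0%), with 329 genes at an unadjusted p under 0.05 (2.47%), while DESeq2 called 8. Sema4a came nearest among the genes called in Esamlo: it was at 30.4 and 32 CPM in Esamhi WT and 201 and 170 CPM in Esamhi CKO, so that the CKO levels of both subsets were alike and the WT levels were not. The log2 difference of the changes was -1.44 (SE 0.219, adjusted p = 0.315), and it was called with DESeq2, without the filter on low counts and without WT replicate 2. Hpse was at 15.7 and 18.2 CPM in Esamhi WT and 51.3 and 61.2 CPM in Esamhi CKO, with a difference of -1.05 (SE 0.176, adjusted p = 0.375). Cdh1 was at 0 and 0.519 CPM in Esamhi WT and 527 and 510 CPM in Esamhi CKO, with a difference of -3.71 (SE 0.805) that rests on very few WT counts. Phgdh was at 9.06 and 9.29 CPM in Esamhi WT and 9.56 and 8.68 CPM in Esamhi CKO, a level near that of the Esamlo CKO libraries at 8.94 and 9.04 CPM, with a difference of 1.37 (SE 0.279). The other genes called by DESeq2 in this test were Gng12, Gsr, Phgdh, Klri1, Tmem176b and Scpep1, besides Hpse and Sema4a.

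**Figure D5:**
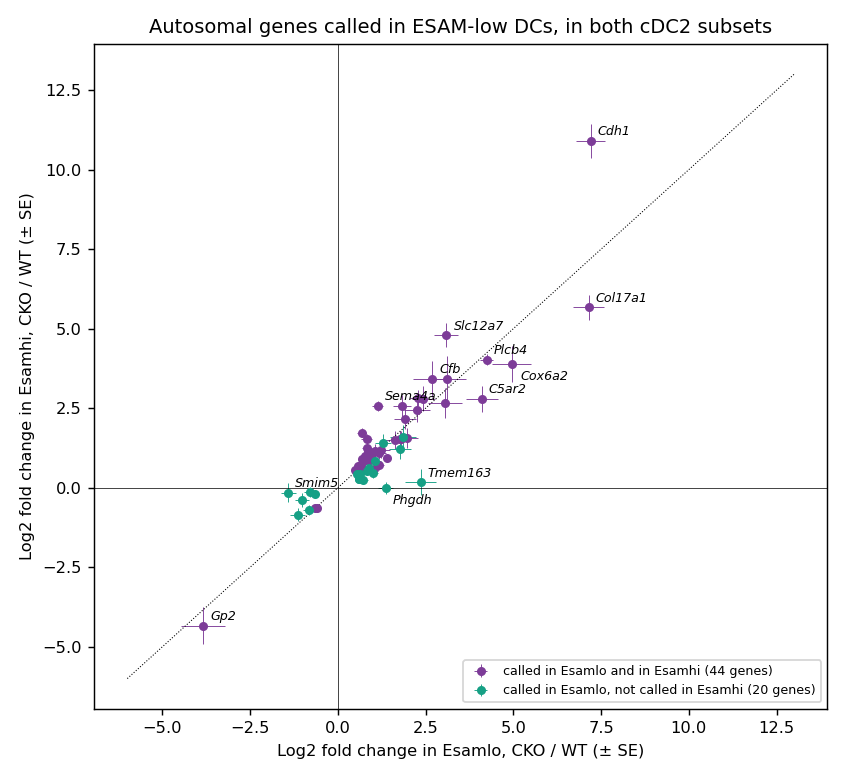
Log2 fold change of CKO over WT in Esamhi against that in Esamlo, with standard errors, for the autosomal genes called in Esamlo; purple points were also called in Esamhi and green points were not, and the dotted line marks equal change. Of the 68 genes 64 are drawn, since Atp8b1, Prkg1, Plcb1 and Itgb4 had a WT mean under 0.1 CPM in one of the subsets; Cdh1 and Slc12a7 lie above the line and Col17a1 and C5ar2 below it.

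Of all 68 genes called in Esamlo, 43 were called in the same direction in Dec205 (63.2% of the Esamlo calls and 4.82% of the Dec205 calls, with 6.7% of all genes called there) and 20 in pDC (29.4% and 8.26%, with 1.82% of all genes called). The 27 genes of the largest rises and falls were looked up singly. Of the 20 that rose in Esamlo, 17 were called higher in Esamhi, 15 in Dec205 and 6 in pDC, and none was called lower in any. Of all tested genes 0.653%, 3.36% and 1.46% were called higher in these subsets. Pydc3, Tmem154 and Tlr12 were not called in Esamhi (log2 fold changes of 1.60, 1.21 and 1.40). Cdh1, Slc12a7, Rnf180, Sec24d and Dhx34 were not called in Dec205, with log2 fold changes of 2.06, -0.36, 0.03, -0.06 and -0.45. The 6 called in pDC were Col17a1, Plcb4, Chst10, Pros1, Pydc3 and Grap, whose changes in pDC were 1.54, 2.48, 4.14, 2.58, 3.62 and 1.5 on the log2 scale. Cdh1 was already high in pDC, at 280 and 274 CPM in WT and 275 and 235 CPM in CKO, while in Dec205 it was at 1.06 and 0 CPM and at 2.15 and 2.07 CPM. The level of the Esamlo CKO libraries, 461 and 324 CPM, was thus above that of the pDC libraries. Slc12a7 was at 50 and 45.8 CPM in Dec205 WT and 27.7 and 47.3 CPM in Dec205 CKO, and at 10 to 18.1 CPM in the pDC libraries.

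The changes of the other risen genes in Esamhi, Dec205 and pDC, on the log2 scale, were as follows. They were 2.66, 7.65 and 0.74 for Ppp1r3d and 2.82, 5.47 and 0.60 for Fam217b. They were 3.42, 2.08 and 1.59 for Cfb, and 2.80, 3.52 and 3.45 for Qpct, which in pDC stayed at or under 1.02 CPM. Inpp4b changed by 1.55, 1.59 and 0.04, Def8 by 1.53, 2.16 and 1.03, and Tmem241 by 1.18, 0.94 and 0.61. Tmem154 had 1.54 and -0.57 and Tlr12 0.90 and -0.09 in Dec205 and pDC. Of the 7 falls, where 0.173% of all genes were called lower in Esamhi, 3.33% in Dec205 and 0.36% in pDC, Tagln2 and Rgs18 were called lower in Esamhi (-0.63 each), and Stard5, Lifr, Plxdc1, Sox4 and Apol7c were not (-0.19, -0.13, -0.70, -0.38 and -0.84). In Dec205 Tagln2, Stard5, Lifr, Sox4 and Apol7c were called lower, Rgs18 higher (0.33) and Plxdc1 not at all (-0.48). Lifr had no count in either Dec205 CKO library and was at 1.14 and 1.83 CPM in Dec205 WT. In pDC Sox4 was called higher (0.93) and none of the 7 lower.

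Some called genes lay near each other. Of the 68, 15 had another called autosomal gene within 250 kb (22.1%), against 510 of the 13249 genes not called (3.85%). The pairs were Plcb1 with Plcb4, C5ar2 with Dhx34 (12.5 kb apart), Hpse with Plac8 (107 kb), Ehd1 with Map4k2 (40.9 kb), Itgb4 with Smim5 (68.5 kb), Fam217b with Ppp1r3d, and Cox6a2 with Itgad and Itgax. All these pairs moved the same way except Itgb4, which rose, and Smim5, which fell. Fam217b with Ppp1r3d and Cox6a2 with Itgad have overlapping gene models, and whether reads were shared between them was not tested.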

How the data were processed

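The deposited table holds raw read counts per gene, as the authors made them, for 24116 genes in 16 libraries; reads were handled with bcl2fastq, Trimmomatic 0.36 and Bowtie2 2.2.9 on mm10, per the submitters' processing notes. For the counting tool, the annotation and strand nothing is given in the sources used here, so overlapping genes and close copies are uncertain. Intervals and floors cover counting error only. Genes were placed by Entrez identifier with RefSeq (GRCm38.p6; 24060 matched).

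Counts were fitted with edgeR 4.0.16 (R 4.3.3; filterByExpr, TMM, robust quasi-likelihood F test, 8 groups, 8 residual degrees of freedom), with Benjamini-Hochberg adjustment over 13790 tested genes. CPM used TMM-scaled totals, and log2 CPM a prior count of 2. Calls required an adjusted p under 0.05. DESeq2 1.42.0, limma 3.58.1 (voom), other scalings and filters, a fold threshold, a replicate block and fits without each library were alternatives. The code was tested on simulated data.

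Genes described singly were Etv6, the markers, the 20 largest called rises and up to 12 largest called falls whose mean log2 CPM was 3 or more and groups that did not overlap (7 met this), called members of each of 48 gene lists and up to 3 uncalled members with the smallest p, and called neighbours within 250 kb. Mgl2 and Clec10a were set beside Esamhi after their values were seen. The members and lists were chosen with earlier results of these data known. Some genes of the lists are counted but not reported singly here.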

Additional observations from a re-analysis of the deposited data

Results flagged for a closer look

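Of the genes called in Esamlo, 5 were called in the opposite direction in another subset. After these values had been seen, the difference between the 2 changes was tested with edgeR's quasi-likelihood test. The genes were picked for opposite calls in the same fit, so small p-values of the difference were built in. They add no support beyond the calls themselves, and only the sizes of the differences describe the genes. Irf1 was at 502 and 548 CPM in Dec205 WT and 406 and 400 CPM in Dec205 CKO, and its log2 change in Esamlo exceeded that in Dec205 by 1.171 (SE 0.119, adjusted p = 0.000528). Mxd1 was at 531 and 514 CPM in Dec205 WT and 276 and 299 CPM in Dec205 CKO, with a difference of 1.744 (SE 0.189, adjusted p = 0.000937). Clec2i was at 58.2 and 55.1 CPM and at 25.1 and 24.1 CPM there, with a difference of 2.375 (SE 0.204, adjusted p = 0.000262). Rgs18 went the other way, from 47.7 and 49.6 CPM to 62.1 and 60.1 CPM in Dec205, with a difference of -0.9712 (SE 0.127, adjusted p = 0.00221). Sox4 was at 39.3 and 41.3 CPM in pDC WT and 76.9 and 76.5 CPM in pDC CKO, with a difference of -1.962 between Esamlo and pDC (SE 0.283, adjusted p = 0.00895).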

How the results depend on the processing

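Against 59 genes called higher, 9 lower and 68 in all, counts (higher, lower, all) were 89, 29 and 118 with the 4 Esamlo libraries alone, 167, 73 and 240 with DESeq2, 91, 32 and 123 with limma-voom, and 15, 0 and 15 against a fold of 1.5 with glmTreat. Scaling by library size gave 14 lower and no filter on low counts 19 lower. Without 1 library the counts were 20 to 28 higher, 0 to 4 lower and 22 to 32 in all, the fewest in all without WT replicate 2; 17 rises and 0 falls kept their call in all 4 such fits and 28 genes in none. With a replicate block the counts were 38, 3 and 41, and 34 of the 68 genes kept their call; same-numbered Esamlo libraries share only a number (correlation of deviations 0.0182 over 8783 genes). The difference between Esamlo and Esamhi, with 0 genes called, had 1 without the filter, 8 with DESeq2 and 0 to 1 without a library. No called gene changed direction in any alternative run, and the cause of the changed counts was not tested. With 2 libraries a group, depth leaves Itgb4, with 2 counts over both WT libraries, a counting interval of 38.8 to 1171 for its ratio.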
